A study of Bos taurus with 12 samples.

Results

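The lipins are the products of LPIN1, LPIN2 and LPIN3, and their transcripts were followed in the mammary gland of lactating Holstein cows before and during feed restriction. Probes were taken as members when the RefSeq transcript printed beside them in the scanner files belongs to one of the 3 genes. The 12787 genes named on the arrays include 2 of the 3. They had 6 of the 43653 probes, 3 for LPIN1 (transcript NM_001206156) and 3 for LPIN3 (NM_001354379). No probe was matched to LPIN2, so LPIN2 was not analysed here. Of the 6 probes, 4 were bright enough to be tested, namely the 3 of LPIN1 and 1 of LPIN3.

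The tissue was a biopsy of the udder taken from each of 6 multiparous midlactation Holstein cows in 2 periods. In CONT (day 0, n = 6) the cows ate a lactation ration without limit, and in REST (day 6 of restriction, n = 6) feed covered 50% of the net energy that lactation required. Each biopsy was hybridised to its own one-colour array, 4 arrays to a slide, with both biopsies of a cow on the same slide. The labels name 6 cows whereas the series description counts 5 and the study excluded a cow with mastitis, so every cow was also left out in turn.

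CONT always preceded REST and the biopsies alternated between the rear glands of the udder, so that restriction, time, the earlier biopsy and the side cannot be told apart. The arrays of slide 3 (cows 5 and 6) were dimmer, with a 75th percentile of 73.2 to 117 intensity units against 252 to 390.0 on slides 1 and 2, and the 75th percentile was higher in REST than in CONT in 6 of 6 cows. Signals are therefore given on a log2 scale relative to the 75th percentile of their own array, where a negative change is a fall, and a probe is said to be above background where the scanner software called it well above background.

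Lipins are phosphatidate phosphatases, enzymes that remove the phosphate of phosphatidic acid to give diacylglycerol, from which cells make triacylglycerol and the major membrane phospholipids. In the lactating mammary gland this reaction lies on the route by which fatty acids are assembled into milk fat. Unlike the other enzymes of that route, lipins are soluble proteins that move between the cytosol, the endoplasmic reticulum and the nucleus, where LPIN1 is also known as a partner of transcription factors. LPIN1 is best known from adipose tissue and skeletal muscle, LPIN2 from liver and macrophages, and LPIN3 is the least studied of the family.

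LPIN1 fell in REST with all 3 of its probes, by a factor of about 3.68 on the brightest. On this probe, called probe 1, the CONT signals ran from -1.87 through a median of 0.47 to 1.56, and the REST signals from -2.92 through -1.40 to -0.79. The periods overlapped, as the CONT signal of cow 2 lay far under the rest. The lowest of the other 5 CONT signals was 0.28. The change was -1.88 (SE 0.20, 95% interval -2.34 to -1.42, n = 6 cows), with an adjusted p of 0.00465 by limma with the cow as a block and Benjamini-Hochberg adjustment over 19406 probes, for which the threshold was 0.1. As fold, the interval runs from 2.68 to 5.05 times lower.

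The fall of LPIN1 was present in each cow. In cows 1 to 6 in turn, probe 1 changed by -1.60, -1.05, -1.77, -2.81, -2.35 and -1.68. Cow 2 therefore had the smallest fall (2.08 times lower) and cow 4 the largest (7.03 times lower). An exact two-sided sign-flip test over the 6 cows gave p = 0.03125, the smallest p that 6 cows allow. Of all tested probes, 9.78% were lower in all 6 cows.

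**Figure D1:**
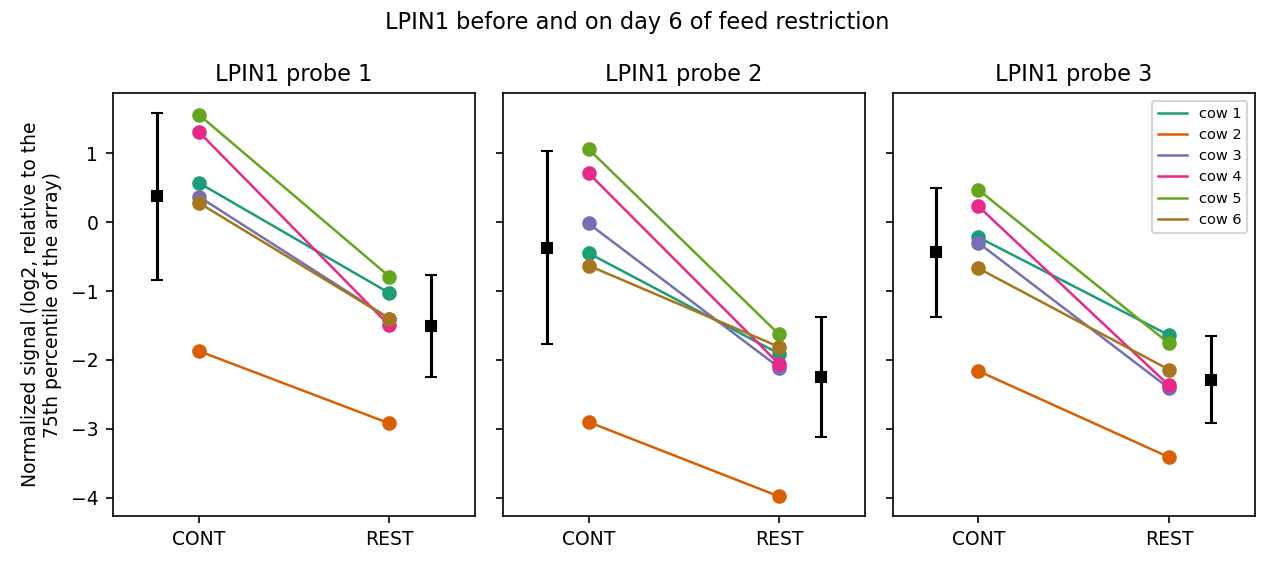
Normalized log2 signal of the 3 LPIN1 probes (vertical axis, relative to the 75th percentile of the array) in CONT and REST, with a line for each cow and black squares for the mean ± SD of 6 cows. Each of the 18 lines goes down, and cow 2 lies under the other cows in both periods on every probe.

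The other probes of LPIN1 gave nearly the same change. Probe 2 changed by -1.88 (SE 0.24, 95% interval -2.42 to -1.34, limma adjusted p = 0.00726), from CONT signals of -2.90 to 1.06 (median -0.23) to REST signals of -3.98 to -1.63 (median -1.98). Probe 3 changed by -1.85 (SE 0.18, 95% interval -2.25 to -1.44, limma adjusted p = 0.00366), from CONT signals of -2.16 to 0.47 (median -0.26) to REST signals of -3.41 to -1.64 (median -2.25). On both, the periods again overlapped. Over the 12 arrays the signals of the probes correlated pairwise with r of 0.969 to 0.988, as a description of arrays that share cows and slides, and in no cow did the change differ between probes by more than 0.50. All 3 were above background on 12 of 12 arrays.

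Among all tested probes 1703 (8.78%) were called lower and 1402 (7.22%) higher, and among 7932 tested genes, each represented by its brightest tested probe, 735 (9.27%) were called lower with a median change of -0.40. LPIN1 ranked 8th by the size of its fall, and 8 genes (0.101%) were lower by 1.8 or more. The median change of all tested genes was -0.01. Before any scaling, the log2 signal of LPIN1 probe 1 was lower in REST by 1.58 on average and in 6 of 6 cows, while the 75th percentile of the arrays moved the other way, by 0.30.

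The size of the LPIN1 fall varied between cows. The cows with the highest CONT signal on probe 1, cows 5 and 4 at 1.56 and 1.31, had the largest falls, and cow 2, with the lowest, had the smallest. The other 3 cows did not follow that order: cow 1 started at 0.57 and changed by -1.60, cow 3 at 0.37 and by -1.77, and cow 6 at 0.28 and by -1.68. The change contains the CONT signal, so these are a description of the same values. The spread between cows was narrower in REST: the SD of probe 1 was 1.21 in CONT and 0.74 in REST, and without cow 2 it was 0.58 and 0.30. The same order of SDs held for probe 2 (1.40 and 0.87) and probe 3 (0.93 and 0.63), and the difference between the SDs was not tested.

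Cow 2 had less LPIN1 signal than the other cows in both periods. Its probe 1 signal of -1.87 in CONT compares with 0.28 to 1.56 in the other 5 cows, and its -2.92 in REST with -1.50 to -0.79. On probes 1 and 2 its CONT signal, from before any restriction, was under the REST signals of the other 5 cows, and on probe 3 (-2.16) it lay within their range of -2.41 to -1.64. Leaving out cow 2 made the change larger, at -2.04 (limma adjusted p = 0.00787).

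The fall of LPIN1 probe 1 was present within each slide. Its mean change was -1.33 for cows 1 and 2, -2.29 for cows 3 and 4, and -2.02 for cows 5 and 6, each pair of cows being 1 slide. When the pairing by cow was left out of the model, the change of -1.88 stayed called (SE 0.50, limma adjusted p = 0.0760). In that fit 4.31% of probes were called (2.73% lower) against 16.0% with the block. Probe 3 kept its call without the block (adjusted p = 0.0353) and probe 2 lost it (adjusted p = 0.113). Under normexp on median spot intensities with an offset of 50 the change was -1.24 (limma adjusted p = 0.00521).

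No change was called for LPIN3, whose only tested probe passed the filter through REST alone. Its brightest probe, probe 1, was above background on 5 of 6 CONT and 6 of 6 REST arrays. The CONT signals ran from -3.04 through a median of -1.57 to -1.08, and the REST signals from -1.70 through -1.54 to -1.17. The REST signals all lay inside the range of the CONT signals, whose lowest value, that of cow 6, was not above background.

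LPIN3 probe 1 passed the filter only through REST, where its mean was higher, so its fits are a description. Its change was 0.28 (SE 0.19, 95% interval -0.16 to 0.72, limma adjusted p = 0.376), and it was above 0 in 3 cows and below 0 in 3. In cows 1 to 6 in turn it was 0.35, -0.26, -0.01, -0.09, 0.31 and 1.39. Most of the mean came from cow 6, without which it was 0.06 (limma adjusted p = 0.773). On slides 1, 2 and 3 the mean change was 0.05, -0.05 and 0.85. With normexp it was 0.02. Before scaling, the log2 signal was higher in REST in 6 of 6 cows, by 0.58 on average, beside the rise of 0.30 in the 75th percentile of the arrays, so the direction in single cows depends on the scaling.

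The remaining LPIN3 probes did not pass the filter and were not tested. Probe 2 was above background on 4 of 6 arrays in each period, and the 4 arrays under it were those of slide 3. Its mean change was -0.14, with 2 cows higher and 4 lower. Probe 3 was above background on 0 of 12 arrays and gives no level. Over the 12 arrays LPIN3 probes 1 and 2 had r = 0.145. This r includes spots that were not above background, so it cannot show whether the probes move together.

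**Figure D2:**
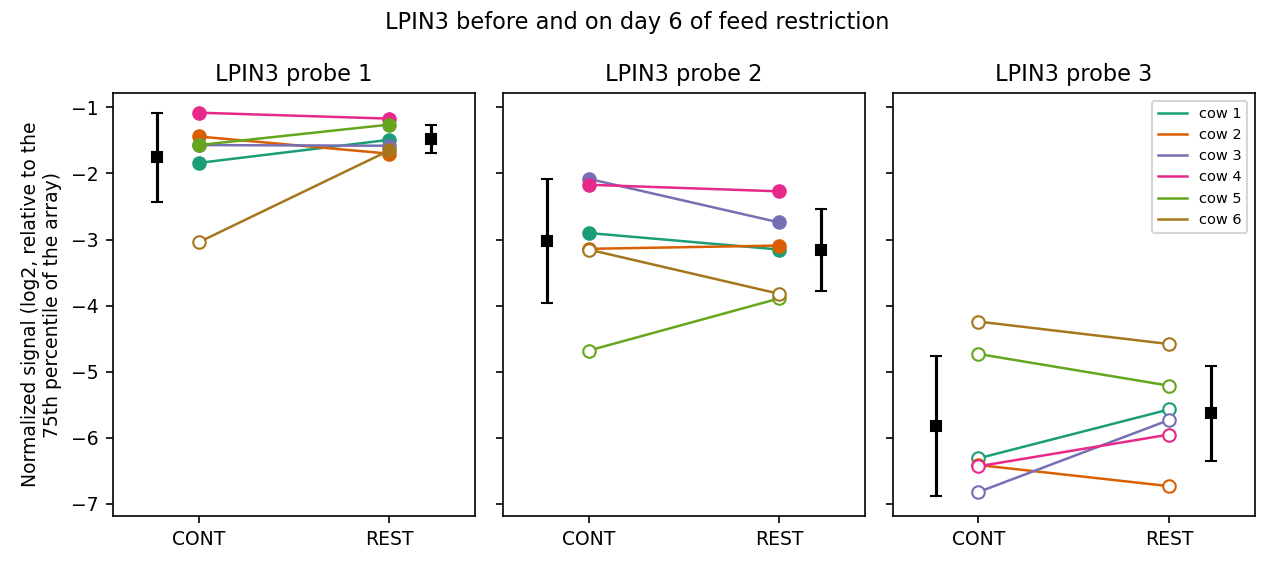
Normalized log2 signal of the 3 LPIN3 probes (vertical axis, relative to the 75th percentile of the array) in CONT and REST, with a line for each cow, open circles where the spot was not above background, and black squares for the mean ± SD of 6 cows. On probe 1, 5 lines shift by 0.35 or less and that of cow 6 starts from an open circle at -3.04, and on probe 3 every circle is open.

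The change of LPIN1 was set against that of LPIN3 within each cow, the 1 pair of members that could be compared. The LPIN1 change minus the LPIN3 change, on the brightest probe of each, was -2.16 ± 0.83 (SD, n = 6), with a range from -3.07 in cow 6 to -0.80 in cow 2. It was below 0 in 6 of 6 cows. The value of cow 6 uses the LPIN3 spot in CONT that was not above background, and without cow 6 the mean was -1.98. LPIN3 probe 1 passed the filter only through REST, where its mean was higher, so the difference is given as a description with no test. With normexp it was -1.26. Levels of LPIN1 and LPIN3 come from different probes and cannot be ranked against each other.

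**Figure D3:**
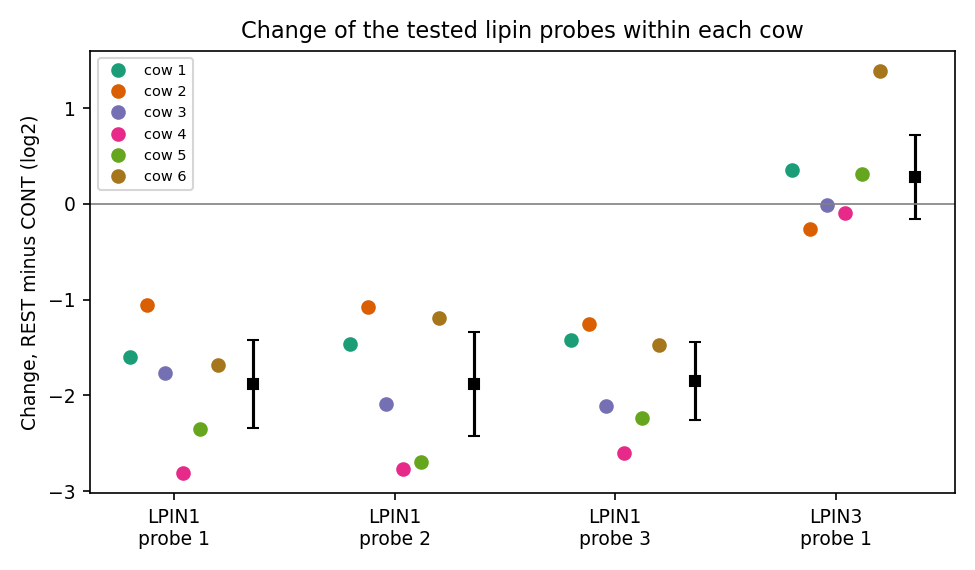
Change from CONT to REST (vertical axis, log2) of the 4 tested lipin probes, with a coloured point for each cow and a black square for the limma estimate with its 95% interval. The LPIN1 points all lie below 0, between -2.81 and -1.05, and the LPIN3 points lie around 0 apart from cow 6 at 1.39.

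The biopsies hold several cell types, and fewer cells of a type cannot be told apart from less RNA per cell. Adipocytes and muscle fibres, in which LPIN1 is well known, were therefore looked for by their markers. Of 6 adipocyte markers 2 were tested, FABP4 (change -0.35, limma adjusted p = 0.0447) and CIDEA (-0.27, adjusted p = 0.0782), both of which the lactating gland itself is known to express. Their mean level ranged from 6.48 to 7.60 in CONT and from 6.21 to 7.12 in REST and was lower in 6 of 6 cows. With a cow left out FABP4 lost its call in 2 of 6 fits and CIDEA in 5, and without the block both lost it (adjusted p = 0.194 and 0.816). CIDEA was called on 1 of its 4 tested probes. PLIN1, the coat protein of the adipocyte lipid droplet, was above background on 0 of 12 arrays, LEP on 2 of 6 and CIDEC on 4 of 6 in each period, and ADIPOQ had no matched probe.

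Of 6 skeletal muscle markers, CKM was lower (-0.36, limma adjusted p = 0.0702) and ACTA1 was not called (0.02), with a mean level of -0.11 to 0.35 in CONT and -0.30 to 0.20 in REST. CKM lost its call in 4 of the 6 fits with a cow left out and without the block (adjusted p = 0.474). Of the untested myosin genes, MYH1 was above background on 0 of 12 arrays, MYH2 on 2 of 6 and MYH7 on 4 of 6 in each period. Of 7 tested luminal epithelial markers, KRT8 and KRT18 were higher and CSN3 lower, of which KRT18 and CSN3 lost their calls in 5 of 6 fits with a cow left out and all 3 without the block. The calls held on 2 of 3 tested probes of KRT8, 2 of 3 of KRT18 and 1 of 2 of CSN3. The remaining KRT8 probe changed by -0.14. The mean level of the list was 5.60 to 6.13 in CONT and 5.80 to 6.26 in REST. No member of the 6 macrophage and leukocyte markers was called, with a mean level of -0.01 to 0.43 in CONT and -0.06 to 0.58 in REST. Of 6 myoepithelial markers KRT17 was called higher (on 1 of 2 tested probes) and ACTA2 lower (mean level 2.21 to 2.96 in CONT, 2.29 to 2.96 in REST). These calls were lost in 4 and 5 of 6 fits with a cow left out and both without the block. Of 4 endothelial markers VWF was called higher (0.54, adjusted p = 0.00726; mean level 0.35 to 1.02 in CONT, 0.70 to 0.88 in REST). Over all tested genes 16.2% were called. The part of these cells in the LPIN1 change was not tested.

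The genes around the lipin reaction were examined in 6 lists of 75 genes, of which 49 were tested. Of these, 9 (18.4%) were called, 3 higher and 6 lower, against 16.2% of all tested genes (6.95% higher and 9.27% lower), so the share is close to the background. The median change was -0.07 over the lists and -0.01 over all tested genes. INSIG1 was the listed gene that fell as far as LPIN1, on its brightest probe (-1.98), while its second probe changed by -1.50. Without the cow as a block 1 of the 9 calls was left, that of INSIG1, against 4.41% of all genes (1.60% higher and 2.81% lower).

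Phosphatidic acid, the substrate of lipins, is built from glycerol-3-phosphate by the acyltransferases of the GPAT and AGPAT families. Of 9 tested genes for its supply, 2 were called higher and 1 lower (median change 0.13). GPAT3, a microsomal glycerol-3-phosphate acyltransferase, went from CONT signals of -0.51 to 0.33 to REST signals of -0.16 to 0.63, higher in 6 of 6 cows though with overlapping periods (change 0.35, SE 0.08, limma adjusted p = 0.0349). GPAT4, which catalyses the same step, was lower in 5 of 6 cows (-0.35, SE 0.11, adjusted p = 0.0884), though its second probe was not called (-0.17). AGPAT4, an acyltransferase of the next step, was higher in 5 of 6 (0.40, SE 0.13, adjusted p = 0.0966). The mitochondrial GPAM was not called (-0.26, adjusted p = 0.345; -0.11 without cow 2 and -0.41 without cow 5), nor was AGPAT1 (-0.01, adjusted p = 0.959).

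Diacylglycerol kinases run the lipin reaction backwards. Of 6 tested, 1 was called lower, DGKB (-0.35, SE 0.11, limma adjusted p = 0.0799, lower in 5 of 6 cows), and the median change was -0.02. The membrane-bound lipid phosphate phosphatases of the PLPP family also remove the phosphate of phosphatidic acid, though without the lipin requirement for magnesium. Of 4 tested, 0 were called (median change -0.03). In neither list did any gene change by as much as LPIN1, and of all tested genes only 0.101% were lower by 1.8 or more. Over all tested genes 16.2% were called.

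Downstream of the reaction, diacylglycerol is acylated to triacylglycerol by DGAT enzymes or turned into phospholipid, and phosphatidic acid can instead enter the CDP-diacylglycerol branch. Of 8 tested genes, 2 were called lower and 0 higher (median change -0.06). DGAT1, the acyltransferase best known for its effect on milk fat in cattle, was lower in 6 of 6 cows, from CONT signals of -0.87 to -0.28 to REST signals of -1.16 to -0.55 (change -0.28, SE 0.08, limma adjusted p = 0.0708). TAMM41, which makes CDP-diacylglycerol in mitochondria, was lower in 6 of 6 (-0.33, SE 0.08, adjusted p = 0.0402). DGAT2 was above background on 5 CONT and 4 REST arrays and was not tested.

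Lipin proteins are held in the cytosol when phosphorylated, chiefly through mTORC1, and are dephosphorylated by the phosphatase CTDNEP1 with its partner CNEP1R1. Of 7 tested genes of this control, 1 was called lower, AKT1S1, an inhibitory partner of mTORC1 (change -0.36, SE 0.08, limma adjusted p = 0.0375, lower in 6 of 6 cows). Neither CTDNEP1 (-0.17, adjusted p = 0.226) nor CNEP1R1 (-0.09, adjusted p = 0.472; -0.05 without cow 6) was called. Arrays measure transcripts, and the phosphorylation of lipins was not measured.

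The last list held nuclear partners of LPIN1 and regulators of its transcription. By their brightest probes, 2 of its 15 tested genes were called (median change -0.18). A dimmer probe of MBTPS1 was called higher (0.69) and a dimmer probe of NR3C1 lower (-0.42). INSIG1, which holds back the maturation of the SREBP transcription factors, went from CONT signals of 3.34 to 5.11 (median 3.98) to REST signals of 1.27 to 3.13 (median 1.89). Its periods did not overlap, as for 1.50% of tested probes in the direction of a fall, and it fell in 6 of 6 cows (change -1.98, SE 0.27, limma adjusted p = 0.00776). SREBF1, the gene of the SREBP factor of fatty acid synthesis, was not called (-0.09, adjusted p = 0.771).

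ESRRA, a nuclear receptor of energy metabolism, was higher in 6 of 6 cows (0.42, SE 0.11, limma adjusted p = 0.0497). PPARGC1A, the coactivator with which LPIN1 is known to work, changed by -0.85 (SE 0.30, adjusted p = 0.108) and was below 0 in 5 of 6 cows, from CONT signals of -1.11 to 1.07 to REST signals of -1.17 to -0.03. It was not called here, nor under 11 alternatives, and was called under 6, normexp among them (-0.75, adjusted p = 0.0562). Without cow 1, which had the lowest change (-2.24), the mean was -0.58 (limma adjusted p = 0.214).

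**Figure D4:**
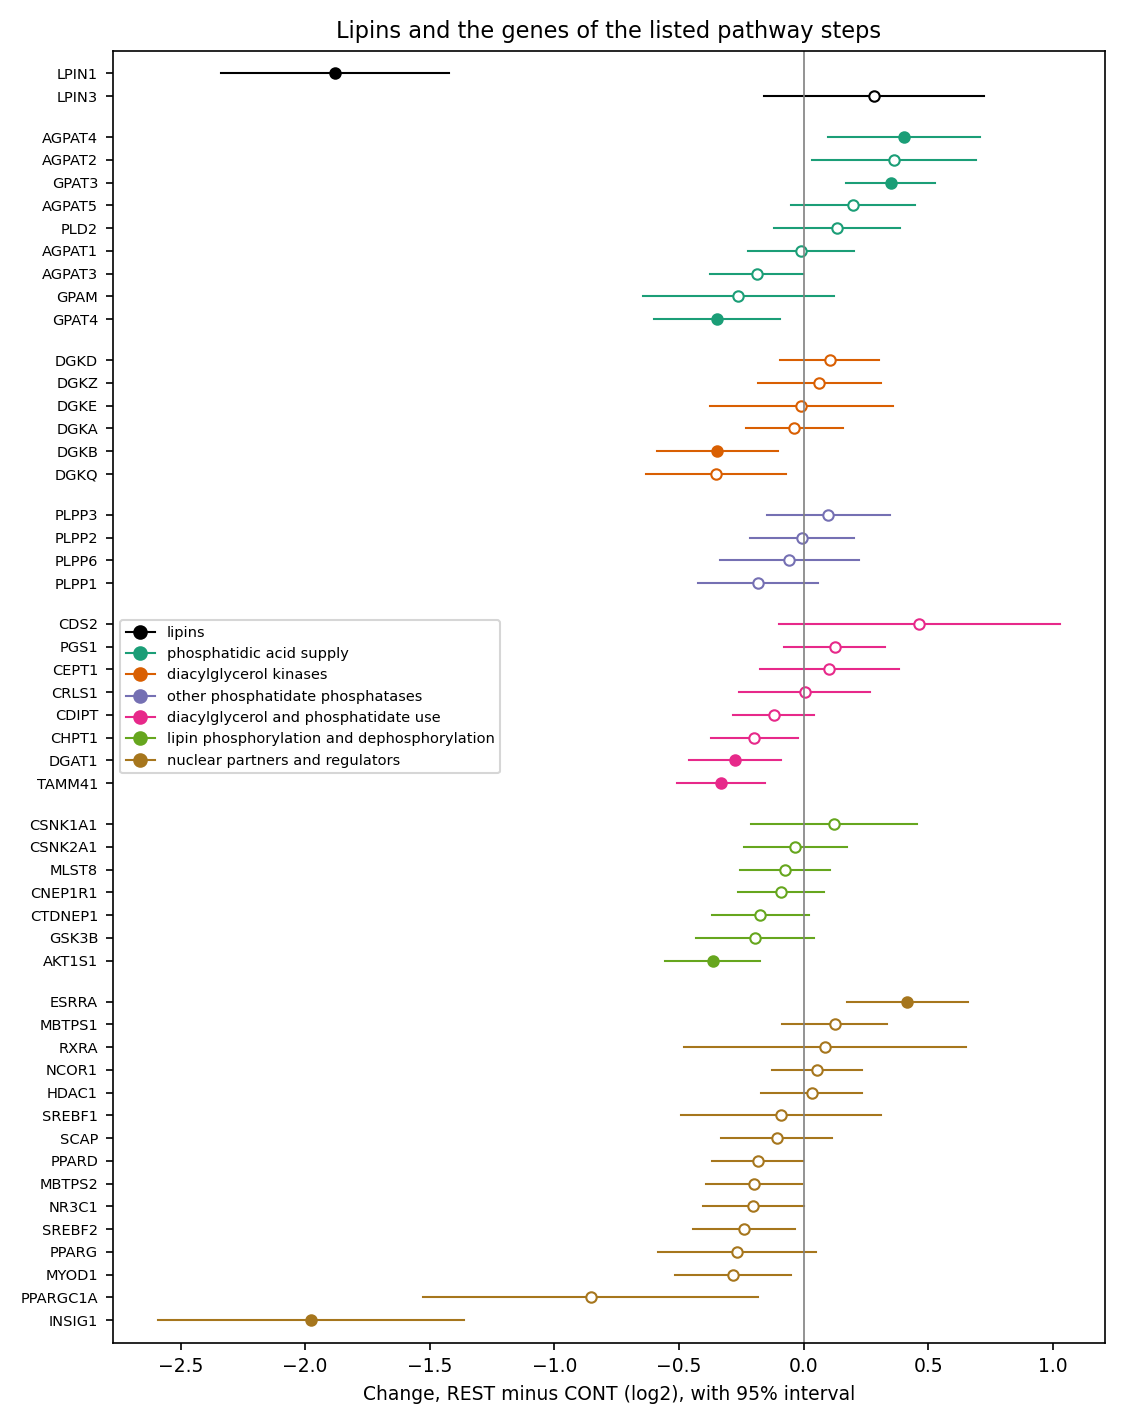
Change from CONT to REST (horizontal axis, log2) with its 95% interval for LPIN1, LPIN3 and the 49 tested genes of the 6 lists, coloured by list, with filled circles where the limma adjusted p was under 0.1. LPIN1 at -1.88 and INSIG1 at -1.98 stand apart on the left, and the other genes lie between -0.85 and 0.46.

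The calls of the smaller changes depended on single cows and on the processing. Leaving out one cow at a time, INSIG1 and GPAT3 kept their calls in every fit. AKT1S1 lost its call without cow 4, and TAMM41 and ESRRA lost theirs without cow 1, 2 or 4. GPAT4, AGPAT4, DGKB and DGAT1 each lost theirs in 5 of the 6 fits, keeping it without cow 3, 5, 1 and 5, respectively. Of the 9 calls only that of INSIG1 was kept both without the filter on dim probes and without the block, and the other 8 were lost under each. With the slide in place of the cow as a block, AGPAT4, GPAT3, GPAT4, DGKB, DGAT1 and ESRRA lost their calls. Quantile normalization and normexp ended those of AGPAT4 and GPAT4, and a median shift that of AGPAT4. With the cow as a random block AGPAT4 and DGKB lost theirs, and by the methods' t-test AGPAT4, GPAT4, DGKB and ESRRA did.

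The genes whose signal over the 12 arrays was most like that of LPIN1 probe 1 were TTC5 (r = 0.940), NES (r = 0.918), EGLN1 (r = 0.904), KCTD6 (r = 0.898) and PXMP4 (r = 0.890), among 7929 genes with a median r of -0.01. NES encodes the intermediate filament protein nestin, EGLN1 an oxygen-sensing prolyl hydroxylase and PXMP4 a peroxisomal membrane protein. The arrays share cows and slides and the r contain both the fall in REST and the low cow 2, so they are a description, and the fall and the low cow 2 of these genes follow in part from how they were chosen. TTC5, NES, EGLN1 and PXMP4 were lowest in cow 2 in both periods, as LPIN1 was, and KCTD6 in REST. Without cow 2 the 5 r were 0.853 to 0.919. Their changes were smaller than that of LPIN1, from -0.23 for TTC5 to -0.73 for NES. The r of the changes over the 6 cows ran from 0.0735 for PXMP4 to 0.708 for EGLN1.

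Genes most similar to LPIN3 probe 1 included GPATCH11 (r = 0.904), MARCKS (r = 0.898), CNOT8 (r = 0.878) and ASPA (r = 0.876), against a median r of -0.07. None of these 4 was called. This likeness rested in part on cow 6, whose LPIN3 spot in CONT was not above background. Without its arrays the r of the same 4 genes were 0.350 to 0.699.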

How the data were processed

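Per the file headers, the authors extracted spots with Agilent Feature Extraction 11, and the deposited scanner files hold, per spot, a background-subtracted intensity (processed signal) on a linear scale. The deposited value table held the same intensities in all 45220 cells of each array. For this report the intensity was log2-transformed, marked spots (1 to 13 per array) were left out, repeat spots averaged and the 75th percentile of the array subtracted. Symbols came through RefSeq accessions (27131 of 43653 probes, 62.2%). The reference table is of a later assembly than the arrays, so no positions or sequences are given, and a probe without a symbol may still belong to a lipin.

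Testing required a probe to be above background on all 6 arrays of CONT or of REST. The periods were compared in limma 3.58.1 (R 4.3.3) with the cow as a fixed block, two-sided, with Benjamini-Hochberg adjustment over 19406 probes and a threshold of 0.1. Pairing comes from the animal names in the labels: deviations from the group means correlated with r of 0.356 to 0.574 within the 6 cows and -0.326 to 0.134 between cows. The fit was tested on simulated data. The members and gene lists were chosen with earlier results of these data known. Named genes were the lipins, at most 4 called genes per list, 9 genes given whatever their result, and the 5 genes most like each lipin, of which 1 is not reported here. Alternatives were other normalizations, filters, blocks, tests and probes, and each cow left out. The normexp setting used median spot intensities in place of means. Precision is limited by the 12 arrays.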

Additional observations from a re-analysis of the deposited data

Results flagged for a closer look

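LPIN1 in cow 2 stood apart from the other 5 cows of its group by the distance to its nearest neighbour relative to the range of the group. This was so for LPIN1 probe 1 in CONT, where cow 2 was at -1.87 and the next cow at 0.28, for probe 1 in REST, where it was at -2.92 and the next at -1.50, and for probe 2 in REST, where it was at -3.98 and the next at -2.11. All 3 spots were above background. Of 38 groups of values examined 3 were set apart in this way, where chance gives about 1 in 20 (1.9 expected). The 3 are not independent, since they come from the same cow and gene.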

How the results depend on the processing

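LPIN1 was lower under all 25 alternatives (-2.04 to -1.24) and kept its call in 20. The exceptions were fits without the replicate block and with a cow left out, an alternative chosen after seeing the data. In those the change was -1.93, -1.90, -1.69, -1.78 and -1.92 without cow 1, 3, 4, 5 and 6, and the call was lost (limma adjusted p of 0.121 to 0.242). It was kept without cow 2 (-2.04, adjusted p = 0.00812). With the block, leaving out a cow gave -2.04 to -1.69, all called. Without the block and with all cows, LPIN1 was -1.88 (adjusted p = 0.0760). LPIN3 was called under none of 24 alternatives (-0.14 to 0.39), and its sign reversed on probe 2, tested without a filter on dim probes (-0.14, adjusted p = 0.711). As LPIN3 probe 1 passed the filter only through REST, its fits are a description. No fit of LPIN3 was possible with only probes above background on all 12 arrays, and none of LPIN2. The difference between LPIN1 and LPIN3 was -2.43 to -1.98 with a cow left out. The pathway lists held 9 calls. Counted afresh under each setting, whichever the genes, there were 1 without a filter (where 43653 probes were tested), 1 without the replicate block, 3 with the slide as a block, and 2 to 10 with a cow left out (4, 3 and 2 without cow 1, 2 and 4). Uncalled changes near 0 reversed for SREBF1 without cow 3 (0.03) or 6 (0.00; -0.25 to 0.03 with a cow left out), and for AGPAT1 with quantile normalization (0.05), normexp (0.05), or without cow 3 (0.04) or 4 (0.04; -0.05 to 0.04 with a cow left out). Over all probes 3105 were called, 837 without the block, 388 without a filter and 1899 with the slide as a block. An unmoderated t-test paired by cow called 1853. With a cow left out 1044 to 3292 were called (1531, 1044 and 1192 without cow 1, 2 and 4). The causes were not tested.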
